A study of Bos taurus with 37 samples.

Results

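The clustered replication histone genes of cattle were read in single blastocysts and in the donor cells used for cloning. They were taken as every row of the deposited expression table whose symbol begins with HIST1H, HIST2H, HIST3H or HIST4H, which gave 27 of 22628 rows. These rows hold 24 symbols, because HIST1H1E, HIST1H2AC and HIST1H2BA are each listed in 2 rows, called listing 1 and listing 2 here. By class, 6 rows are linker histone H1 genes, 11 are H2A genes and 10 are H2B genes. The symbols of no H3 or H4 gene fit the rule, and 20 rows belong to the HIST1 cluster, 5 to HIST2, 2 to HIST3 and 0 to HIST4.

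Each embryo library came from 1 bovine blastocyst, so each embryo is a replicate. Male and female IVF-BLs (6 of each) were made by in vitro fertilization. Male and female SCNT-BLs (6 of each) were made by somatic cell nuclear transfer. In it, an oocyte without its own chromosomes was fused with an adult ear skin fibroblast and then activated. How many animals or cell populations gave the fibroblasts is not stated, so the SCNT-BLs of a sex may share 1 donor. Sham NT-BLs (6 male, 5 female) were fertilized zygotes that kept both pronuclei, lost the polar body with some ooplasm and were activated with ionomycin and DMAP, so they were manipulated and activated but received no somatic nucleus. The male and the female donor cells gave 1 library each, so a value for them has no replicate. The sexes ran on separate flow cells, so a difference of sex and a difference of flow cell cannot be told apart. Expression was given as FPKM, fragments per kilobase of transcript scaled to the mapped fragments of the library, a scale on which genes can be compared per length.

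Most replication histone genes lie in a few clusters, are transcribed in S phase to package newly made DNA, and end in a stem-loop bound by SLBP in place of a poly(A) tail. The stem-loop end is cut by a U7 small nuclear ribonucleoprotein together with cleavage factors shared with other mRNAs. Some of the genes also give transcripts with a poly(A) tail, and histones used outside S phase, such as H3.3 and H2A.Z, come from single genes whose mRNAs carry one. The libraries were made from poly(A) RNA, so the values below are read as polyadenylated histone transcripts and say nothing of the stem-loop forms. Copies of 1 core histone class, such as H2A or H2B, are nearly identical in their coding sequence, so reads may be shared among copies. The level of a single copy is then less certain than that of a class.

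The labels were checked against cell markers. Of 12 trophectoderm marker rows, 11 had a median over 1 FPKM in each of the 6 embryo groups, and the fibroblast marker list summed to 2.42 to 36.1 FPKM in embryos against 11800 and 7180 FPKM in the male and the female donor cells. Summed inner cell mass markers had a median of 49.5 and 49.1 FPKM in male and female sham NT-BLs, against 98.7 to 141 FPKM in the other 4 embryo groups. Among embryos the summed primitive endoderm list ran from 87.0 to 373 FPKM, the oocyte list from 0.323 to 12.9 and the blood list from 4.27 to 47.1, with the blood gene HBA at 0 in every library. Summed cumulus markers ran from 16.4 to 3330 FPKM over the embryos, with medians of 649, 133 and 52.9 FPKM in male IVF, SCNT and sham NT-BLs and of 1090.0, 344 and 195 in the female groups. The single rows did not share this order. Of 8 rows, 4, 6 and 5 had a median over 1 FPKM in the male groups and 5, 4 and 6 in the female groups. PTX3 was at 0 in all male IVF-BLs and all SCNT-BLs, but not in all female IVF-BLs or sham NT-BLs of either sex. The sum is thus not read as a number of cumulus cells. Relative depth, read from the steps between low values and given relative to male IVF replicate 1, had group medians of 0.927, 0.873 and 0.635 in male IVF, SCNT and sham NT-BLs and of 1.1, 0.94 and 0.674 in the female groups. Sham NT-BLs thus had the lowest median depth and the lowest median inner cell mass and cumulus marker sums in both sexes, and the part of these in the histone values was not tested. In single whole embryos, fewer cells of a type and less RNA per cell cannot be told apart. Of 5151 rows with a median over 10 FPKM, 189 are listed at 0 in some library, so a 0 here means listed at 0 and not absence.

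Among the members, a few H2B genes carried most of the signal. HIST1H2BD had the highest mean over the 35 embryos at 69.2 FPKM, and HIST1H2BN followed at 52.1. HIST2H2BF averaged 18.2 and HIST1H2BM 17.3 FPKM, and the highest H2A member, HIST1H2AJ, averaged 13.8. These were the 5 members with a mean over 10 FPKM, and 13 members had a mean over 1 FPKM. HIST1H2BD, HIST1H2BN, HIST1H2BM, HIST2H2BE and HIST1H1D were above 0 in every embryo. At the other end, HIST1H2BA listing 1, HIST1H2BL and HIST2H2AA4 were listed at 0 in every embryo and donor library, HIST1H2BB and HIST1H2AA were above 0 in 1 embryo each, and HIST1H2BA listing 2, a copy of the testis H2B gene, was above 0 in 5.

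**Figure D1:**
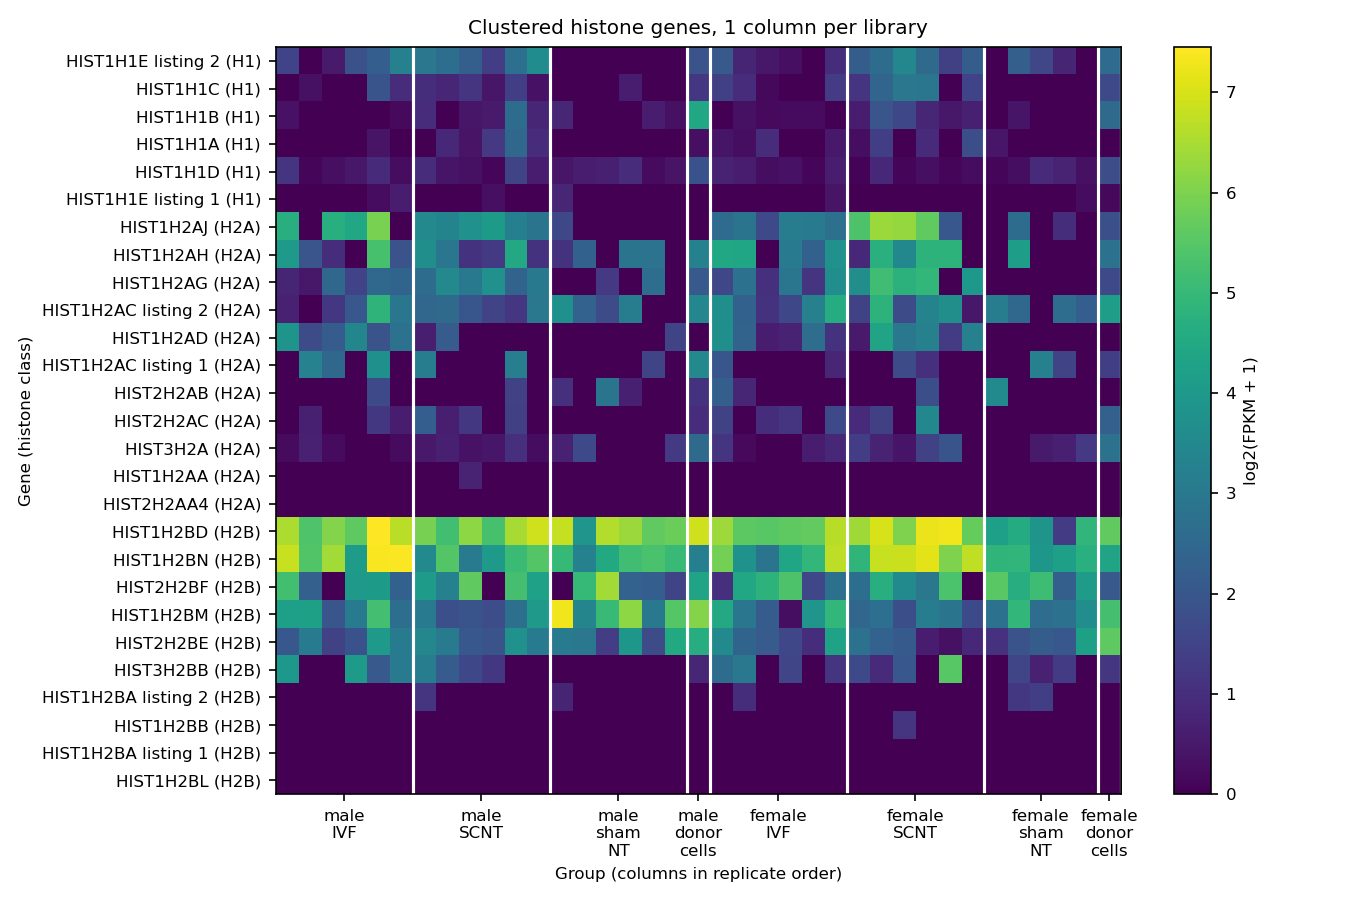
Level of every member (rows, by class) in every library (columns, by group), coloured by log2(FPKM + 1). The H2B genes HIST1H2BD and HIST1H2BN are high in nearly all embryos, while several H2A and H1 rows are at 0 across most or all sham NT-BLs.

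The intermediate H2A genes were HIST1H2AH with a mean of 8.41 FPKM, HIST1H2AG with 6.16, HIST1H2AC listing 2 with 6.11 and HIST1H2AD with 3.23. HIST1H2AC listing 1 averaged 1.75 FPKM and was at 0 in 23 of 35 embryos. The cluster 2 and 3 H2A genes were low, at 0.842 FPKM for HIST2H2AB, 0.81 for HIST2H2AC and 0.577 for HIST3H2A. Of the remaining H2B genes, HIST2H2BE averaged 6.24 and HIST3H2BB 3.59 FPKM. Linker histone rows had means of 2.64 FPKM for HIST1H1E listing 2, 0.987 for HIST1H1C, 0.514 for HIST1H1B, 0.453 for HIST1H1A, 0.443 for HIST1H1D and 0.0616 for HIST1H1E listing 1. All of these are means over the 35 embryos, and 1 embryo often set them: HIST3H2BB reached 44.4 FPKM in a female SCNT-BL, and HIST1H2BM 155 FPKM in a male sham NT-BL.

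Summed over the members, the level was 283 ± 165 FPKM in male IVF-BLs, 176 ± 57.2 in male SCNT-BLs and 191 ± 90.5 in male sham NT-BLs (mean ± SD, n = 6 each). The female sums were 177 ± 87.1 FPKM in IVF-BLs, 337 ± 124 in SCNT-BLs (n = 6 each) and 98.8 ± 37.4 in sham NT-BLs (n = 5). The group means of SCNT-BLs and IVF-BLs were thus in the opposite order in the 2 sexes, with a ratio of SCNT to IVF of 0.622 in males and 1.9 in females. Leaving out 1 embryo at a time kept the ratio between 0.561 and 0.78 in males and between 1.73 and 2.27 in females. The ranges overlapped in both sexes, from 129 to 569 FPKM in male IVF-BLs against 95.0 to 244 in male SCNT-BLs, and 92.1 to 320.0 FPKM in the female IVF group against 192 to 479 in the female SCNT group. The ratio of sham NT to IVF was 0.675 in males and 0.558 in females. The opposite order of SCNT-BLs and IVF-BLs did not extend to the 29 histone rows under other names, read further below. Their summed means were 194 FPKM in male IVF-BLs and 236 in male SCNT-BLs, and 115 and 251 FPKM in the female groups.

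**Figure D2:**
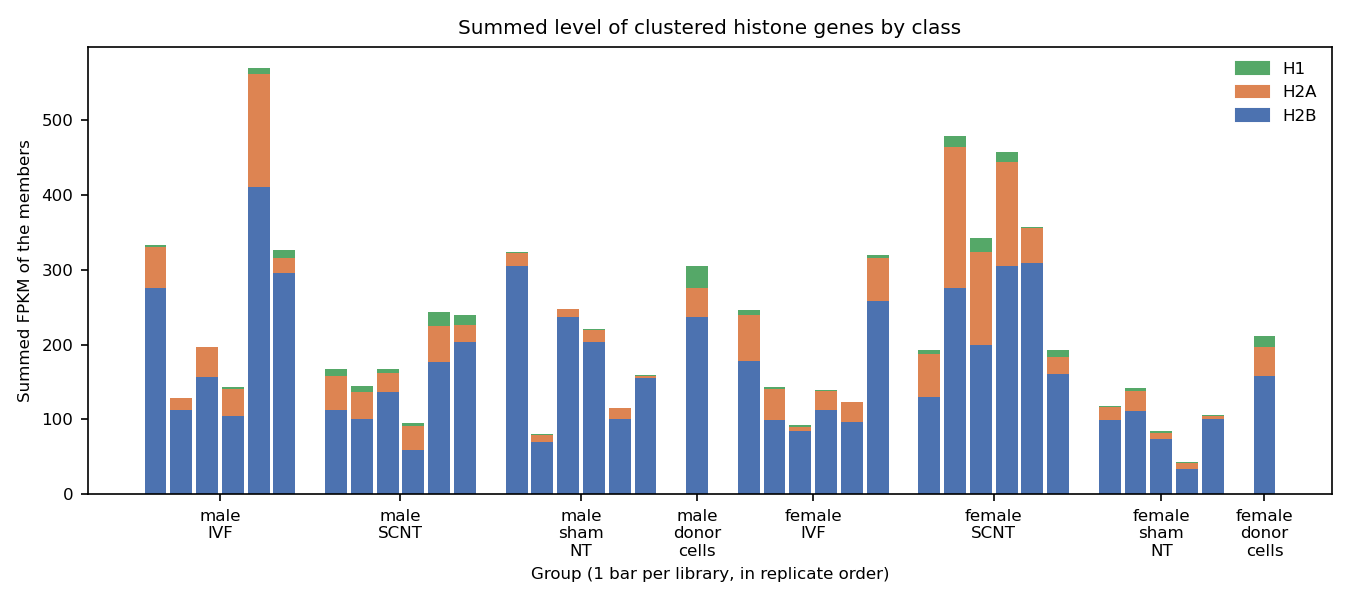
Summed FPKM of the members in each library (1 bar per library, stacked by class H2B, H2A and H1). Male IVF replicate 5 is the highest bar at 569 FPKM, and all 5 female sham NT-BLs lie at or below 142 FPKM.

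The classes did not share 1 order of groups. H2B sums were 226 ± 121, 131 ± 52.6 and 179 ± 87.9 FPKM in male IVF, SCNT and sham NT-BLs, and 138 ± 67.6, 230.0 ± 77.0 and 83.3 ± 31.4 FPKM in the female groups. H2A sums averaged 52.9 FPKM, with a range of 15.7 to 151, in male IVF-BLs, 34.7 ± 10.3 in male SCNT-BLs and 11.5 ± 4.91 in male sham NT-BLs, and 36.5 ± 21.4, 96.5 ± 64.0 and 13.6 ± 8.91 FPKM in the female groups. H1 sums were 4.26 ± 4.03, 9.97 ± 5.61 and 0.931 ± 0.571 FPKM in the male groups, and 2.47 ± 2.08, 10.5 ± 6.21 and 1.91 ± 1.71 FPKM in the female groups. SCNT-BLs had the highest mean H1 sum in both sexes, and sham NT-BLs the lowest mean H1 and H2A sums in both sexes. HIST1H2BN and HIST1H2BD together made up a median of 49.8% to 63.0% of the summed level in the 3 male embryo groups, 55.9% and 59.6% in female IVF and SCNT-BLs, and 38.9% in female sham NT-BLs.

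Differences between groups were tested with limma on log2(FPKM + 1) over every gene with a mean above 0.1 FPKM in the groups compared, and adjusted over all of them by Benjamini-Hochberg. Fold changes on this scale understate those of low genes. Between 20 and 22 of the 27 members passed this level filter in each comparison of 2 groups. A member that passes only through the group where it is high is bound to differ, so counts among those tested are not counts of all members. Among called members, this held in male sham NT-BLs against IVF-BLs for HIST1H1E listing 2 and HIST3H2BB. In male SCNT-BLs against sham NT-BLs it held for HIST1H1E listing 2 and HIST1H1C. In females it held for HIST1H2AD and HIST1H2AG in both comparisons with sham NT-BLs, and for HIST1H1C against SCNT-BLs. The direction of these calls was fixed by the filter, so their adjusted p-values are given as description only. IVF, SCNT and sham NT-BLs of a sex enter more than 1 comparison, so the comparisons within a sex share samples.

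The comparison of SCNT-BLs with IVF-BLs asked how far cloned embryos differ from fertilized ones. In males 0 of 20 members tested were higher and 1 was lower, where 6.98% of all genes tested were called in either direction, 3.34% higher and 3.64% lower. The 1 member was HIST1H2AD, a core H2A gene. It ran from 2.35 to 13.5 FPKM with a median of 4.75 in male IVF-BLs, and in male SCNT-BLs it was at 0 in 4 embryos, 0.557 in 1 and 3.38 in 1. All but 1 of the male SCNT-BLs lay below every male IVF-BL, and the log2 difference was -2.19 (SE 0.47, limma adjusted p = 0.0112).

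HIST1H2BN, the second most abundant member, had a lowest, median and highest level of 16.4, 98.8 and 170.0 FPKM in male IVF-BLs and of 7.37, 23.8 and 43.3 in the male SCNT group. The ranges overlapped, and the log2 difference of -1.84 (SE 0.55) had a limma adjusted p of 0.0541, which fell below 0.05 when male IVF replicate 4, male SCNT replicate 2 or male SCNT replicate 6 was left out (lowest 0.0111). HIST1H2AG went the other way, with a lowest, median and highest level of 0.388, 3.08 and 4.64 FPKM among IVF-BLs and of 4.19, 7.11 and 12.7 among SCNT-BLs. Its log2 difference was 1.36 (SE 0.42, limma adjusted p = 0.0628), and the adjusted p was 0.0395 to 0.118 over the other settings. Of the 20 members, 13 had a positive and 7 a negative difference, with a median of 0.17 against -0.01 over all genes tested. Among the positive ones, the sign of HIST1H1B and HIST1H1A was fixed by the filter on level.

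In females 0 of 21 members tested were called between SCNT-BLs and IVF-BLs by limma, where 0.321% of all genes tested were called, 0.21% higher and 0.111% lower. Without the adjustment 5 had a p under 0.05, all with a positive difference, and limma with robust moderation also called 0. The linker histone row HIST1H1E listing 2 had 0, 0.542 and 3.24 FPKM as its lowest, median and highest level in female IVF-BLs and 1.65, 4.29 and 9.87 FPKM in female SCNT-BLs. The log2 difference was 1.64 (SE 0.41, limma adjusted p = 0.114). HIST1H2BN had 6.23, 25.0 and 104 FPKM in female IVF-BLs and a lowest value of 28.5 and a mean of 94.3 ± 40.8 FPKM (SD, n = 6) in female SCNT-BLs, with a log2 difference of 1.64 (SE 0.55, limma adjusted p = 0.251). The other 3 were HIST1H1B, HIST1H1C and HIST1H2BD, with limma adjusted p of 0.203, 0.379 and 0.397. Female SCNT replicates 5 and 6 had the lowest relative depths of their group, 0.371 and 0.511, and without them 1 member was called higher, HIST1H2AJ (log2 difference 3.23, limma adjusted p = 0.000536). These replicates were also the lowest of their group in HIST1H2AJ, at 3.03 and 0 FPKM, against 40.3 to 79.2 FPKM in replicates 1 to 4. With all replicates its log2 difference was 1.59 (limma adjusted p = 0.528), and leaving these libraries out was chosen after seeing the data.

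The difference between the sexes in the change from IVF to SCNT was tested as an interaction. It was called for 1 of 20 members, higher in females, where 1.91% of all genes tested were called, 1.06% higher and 0.849% lower. This was HIST1H2BN, with an interaction of 3.48 on the log2 scale (SE 0.84, limma adjusted p = 0.0326). The male SCNT-BLs lay toward the lower end of the male IVF range, whereas all female SCNT-BLs lay above the female IVF median of 25.0 FPKM. The call was lost, with adjusted p up to 0.0603, when male IVF replicates 1, 5 or 6, male SCNT replicates 1 or 3, female IVF replicates 2 or 3 or female SCNT replicate 3 was left out, under the replicate block (0.0614), with no filter on level (0.058) and without the lower-depth libraries (0.0629). HIST1H2AD had an interaction of 2.95 (SE 0.85, limma adjusted p = 0.0702), which passed the threshold when male SCNT replicate 2, female IVF replicate 1 or female SCNT replicate 1 was left out (lowest 0.0308).

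Linker histones had mostly positive differences between SCNT-BLs and IVF-BLs. All 5 H1 rows tested were positive in males (median 0.80) and 4 of 5 in females (median 0.86), but 0 were called in either sex. In male IVF-BLs HIST1H1B and HIST1H1A averaged 0.075 and 0.0531 FPKM, so both passed the filter only through SCNT-BLs and their sign was fixed. The H1 row left untested, HIST1H1E listing 1, was lower in SCNT-BLs. Its means were 0.118 and 0.0381 FPKM in male IVF and SCNT-BLs and 0.0509 and 0 in the female groups. HIST1H1B was at 0 in 4 of 6 male IVF-BLs with a highest value of 0.3 FPKM, and had a lowest, median and highest value of 0, 0.604 and 5.26 FPKM in male SCNT-BLs (log2 difference 0.80, SE 0.34, limma adjusted p = 0.19). HIST1H1A was above 0 in 1 of 6 male IVF-BLs and in 5 of 6 male SCNT-BLs, with a log2 difference of 0.92 (SE 0.33, limma adjusted p = 0.114).

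**Figure D3:**
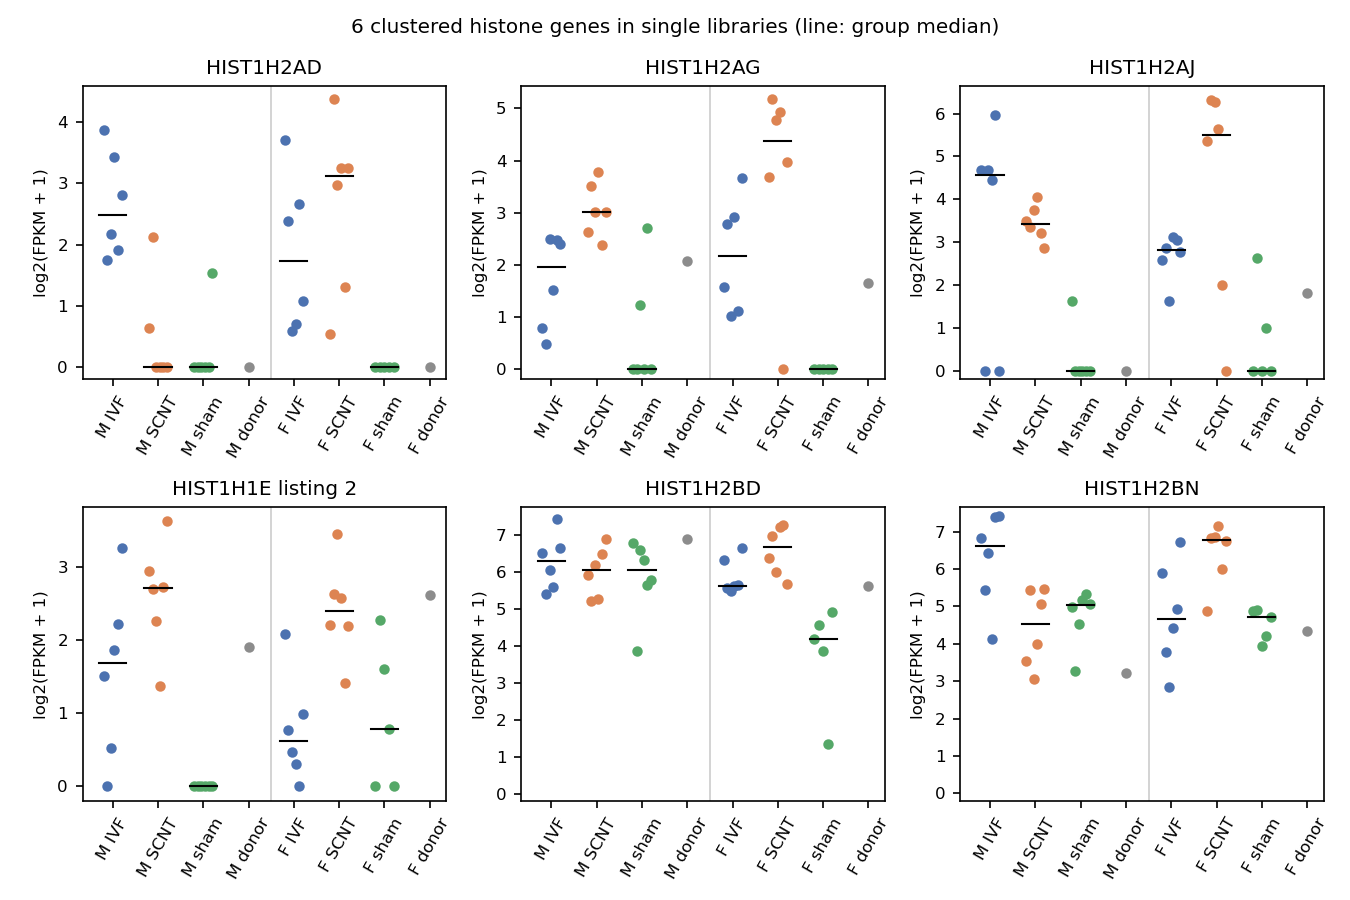
Level of the members named most often, as log2(FPKM + 1), in every library by group (1 point per library). HIST1H2AD is above 0 in all IVF-BLs of both sexes and in all female SCNT-BLs, and is at 0 in 4 of 6 male SCNT-BLs, 5 of 6 male sham NT-BLs and all 5 female sham NT-BLs.

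Sham NT-BLs were set against IVF-BLs to ask what micromanipulation and chemical activation do without a somatic nucleus. In males 0 of 20 members tested were higher and 4 were lower, where 12.1% of all genes tested were called, 6.13% higher and 5.96% lower. HIST1H2AD, at 0 in 5 male sham NT-BLs and 1.90 FPKM in the other, did not overlap the male IVF range of 2.35 to 13.5 (log2 difference -2.40, SE 0.43, limma adjusted p = 0.00177). HIST1H2AJ was at 0 in 5 male sham NT-BLs and 2.09 FPKM in 1, and at 0 in 2 male IVF-BLs with a median of 22.8 and a highest value of 61.5 FPKM. Its ranges overlapped and the log2 difference was -3.03 (SE 0.91, limma adjusted p = 0.0389).

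HIST1H1E listing 2 and HIST3H2BB, an H2B gene of the third cluster, were listed at 0 in all 6 male sham NT-BLs. In male IVF-BLs HIST1H1E listing 2 had 0, 2.22 and 8.56 FPKM as its lowest, median and highest level (limma adjusted p = 0.0245), and HIST3H2BB had 0, 5.4 and 15.7 FPKM (limma adjusted p = 0.0332). HIST1H2BM had the opposite sign, with 2.91, 12.5 and 36.1 FPKM among male IVF-BLs against 7.0, 38.0 and 155 among male sham NT-BLs, but was not called (log2 difference 1.5, SE 0.68, limma adjusted p = 0.175). HIST1H1E listing 2 lost its call without male IVF replicate 5 (0.0526), HIST1H2AJ without male IVF replicates 1, 3, 4 or 5 or any of male sham NT replicates 2 to 6 (up to 0.0841), and HIST3H2BB without male IVF replicates 1, 4, 5 or 6 or any of male sham NT replicates 2 to 6 (up to 0.07). With no filter on level HIST1H2AJ and HIST3H2BB were not called (0.0892 and 0.0745), and HIST1H2AJ was not called with a pseudocount of 0.1 (0.0565) or robust moderation (0.0513). Only HIST1H2AD was still called when male sham NT replicates 3, 5 and 6, whose relative depth was under 0.6, were left out together (limma adjusted p = 0.00734), while the log2 differences of the others were -2.75 for HIST1H2AJ, -1.56 for HIST1H1E listing 2 and -2.20 for HIST3H2BB with 3 sham NT-BLs left.

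In females 0 of 20 members tested were higher in sham NT-BLs than in IVF-BLs and 4 were lower, where 13.5% of all genes tested were called, 7.03% higher and 6.47% lower. HIST1H2BD stood at 17.3, 22.9, 13.6, 1.53 and 29.1 FPKM in the 5 female sham NT-BLs, and at 44.5, 48.8 and 99.3 FPKM as its lowest, median and highest level in female IVF-BLs. The ranges did not overlap, and the log2 difference was -2.11 (SE 0.50, limma adjusted p = 0.0109). The male values of the same gene overlapped, at 86.9 ± 48.8 FPKM in male IVF-BLs and 67.2 ± 35.4 in male sham NT-BLs (mean ± SD, n = 6 each), with a log2 difference of -0.45 (SE 0.44, limma adjusted p = 0.57). The test of the difference between the sexes gave -1.67 (SE 0.72, limma adjusted p = 0.334), so a difference between them is not shown.

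HIST1H2AG and HIST1H2AD were listed at 0 in all 5 female sham NT-BLs and above 0 in all 6 female IVF-BLs. HIST1H2AG had 1.02, 3.92 and 11.6 FPKM in female IVF-BLs (limma adjusted p = 0.00487) and HIST1H2AD had 0.513, 2.66 and 12 FPKM (limma adjusted p = 0.0206). HIST1H2AJ stood at 0, 5.24, 0, 0.986 and 0 FPKM in the female sham NT-BLs and at 2.12, 6.03 and 7.72 FPKM in female IVF-BLs. In 4 of 5 sham NT-BLs it was below every IVF-BL, and the log2 difference was -1.95 (SE 0.49, limma adjusted p = 0.0157). With female sham NT replicates 2 and 4 left out for depth, HIST1H2AD was no longer called (limma adjusted p = 0.105), with the same log2 difference of -1.86 over 3 sham NT-BLs, and HIST1H2AH was called (0.0441). With the 3 female groups in 1 fit, HIST1H2AD and HIST1H2AJ were not called (0.0503 and 0.164). For the difference of the sham effect between the sexes, limma called 0 of 21 members, where 1.22% of all genes tested were called (0.833% higher and 0.384% lower in females), with 1 positive and 1 negative at an unadjusted p under 0.05, and 0 were called with robust moderation.

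SCNT-BLs and sham NT-BLs were both micromanipulated and activated, and differ in the nucleus, in fertilization, in the fusion with a donor cell and in the stage at manipulation, which cannot be told apart here. In males 4 of 21 members tested were higher in SCNT-BLs and 1 was lower, where 11.8% of all genes tested were called, 5.67% higher and 6.13% lower. HIST1H2AJ ran from 6.24 to 15.6 FPKM in male SCNT-BLs with a median of 9.82, above every sham NT-BL (log2 difference 3.19, SE 0.37, limma adjusted p = 7.4e-05). HIST1H1E listing 2 had 1.57, 5.55 and 11.3 FPKM against a 0 in all 6 sham NT-BLs (limma adjusted p = 0.00019). HIST1H2AG, at 0 in 4 sham NT-BLs with 1.34 and 5.52 FPKM in the others, was higher in SCNT-BLs with a log2 difference of 2.40 (SE 0.48, limma adjusted p = 0.00361), and 4 of 6 SCNT-BLs lay above every sham NT-BL.

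The fourth was HIST1H1C, a linker histone gene expressed in most tissues, with 0.292, 0.852 and 1.63 FPKM in male SCNT-BLs and a single value above 0, 0.495 FPKM, among the sham NT-BLs. Its log2 difference was 0.75 (SE 0.22, limma adjusted p = 0.0341), and it lost the call when any of male SCNT replicates 1, 2, 3 or 5 or male sham NT replicates 1, 2, 3, 5 or 6 was left out (up to 0.0684), under the replicate block (0.0869), with the 3 male groups in 1 fit (0.0955) and without the lower-depth libraries (0.216). HIST1H2BM was the lower one, with 2.42, 4.27 and 15.3 FPKM in male SCNT-BLs against 7.0, 38.0 and 155 FPKM in sham NT-BLs. Its ranges overlapped, 4 of 6 SCNT-BLs lay below every sham NT-BL, and the log2 difference was -2.50 (SE 0.63, limma adjusted p = 0.016).

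In females 6 of 22 members tested were higher in SCNT-BLs than in sham NT-BLs and 0 were lower, where 11.3% of all genes tested were called, 5.21% higher and 6.07% lower. HIST1H2BD stood at 50.9 to 156 FPKM in female SCNT-BLs, above all 5 sham NT-BLs (log2 difference 2.83, SE 0.52, limma adjusted p = 0.00292). HIST1H2BN stood at 28.5, 28.8, 14.4, 17.4 and 25.5 FPKM in the sham NT-BLs, and 5 of 6 SCNT-BLs lay above them all (log2 difference 1.88, SE 0.36, limma adjusted p = 0.00382). HIST1H2AD ran from 0.459 to 19.6 FPKM with a median of 7.67 in female SCNT-BLs and did not overlap the sham NT-BLs, all at 0 (limma adjusted p = 0.00744).

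The other 3 were at 0 in 1 female SCNT-BL each. HIST1H2AG had a median of 20.6 and a highest value of 35.1 FPKM in female SCNT-BLs against 0 in all sham NT-BLs (limma adjusted p = 0.00391). HIST1H1C had a median of 3.12 and a highest value of 6.72 FPKM, again against 0 in all sham NT-BLs (limma adjusted p = 0.02). HIST1H2AJ had a median of 44.7 and a highest value of 79.2 FPKM, overlapped the sham NT-BLs and had a log2 difference of 3.54 (SE 1.01, limma adjusted p = 0.0338). That last call was lost, with adjusted p up to 0.0789, when any of female SCNT replicates 1 to 4 or female sham NT replicates 1, 3, 4 or 5 was left out, and with no filter on level (0.0828); the call of HIST1H1C was lost under the replicate block (0.0518). With the lower-depth libraries left out, 8 members were called higher.

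**Figure D4:**
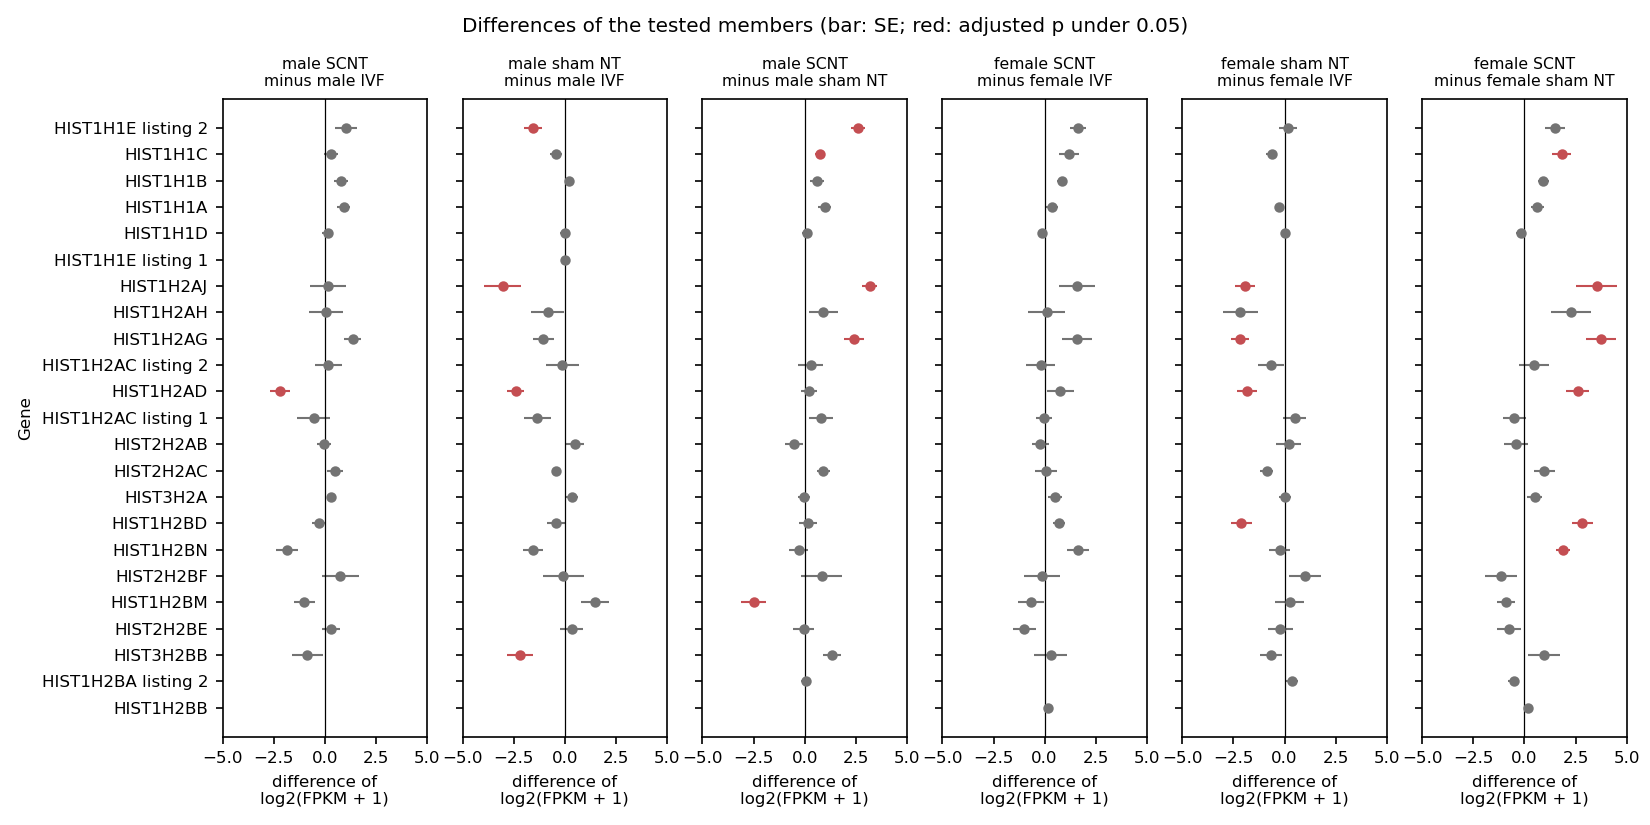
Log2 difference of each member tested in the 6 comparisons of 2 groups within a sex, on the log2(FPKM + 1) scale, with the members called at a limma adjusted p under 0.05 marked. Calls are few between SCNT-BLs and IVF-BLs, lie below 0 between sham NT-BLs and IVF-BLs, and lie mostly above 0 between SCNT-BLs and sham NT-BLs.

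Zeros were counted by a fixed rule, at 0 in every embryo of 1 group and above 0 in at least 4 of another. Against IVF-BLs, male sham NT-BLs met it for 2 of 20 members over the level filter, HIST1H1E listing 2 and HIST3H2BB, where 0.248% of all genes tested did. Female sham NT-BLs met it for 4 of 20, HIST1H2AD, HIST1H2AG, HIST1H1C and HIST2H2AC, where 0.832% did. These shares are over genes of all levels, not over genes matched to the members in level. A row at 0 throughout 1 group passes the level filter only through the other group. The direction of every row counted here was thus fixed by the filter, and the counts are given as description only. Against SCNT-BLs the rule held for 4 of 21 members in male sham NT-BLs (HIST1H1A, HIST1H1E listing 2, HIST2H2AC and HIST3H2BB, beside 0.277% of genes). It held for 3 of 22 in female sham NT-BLs (HIST1H2AD, HIST1H2AG and HIST1H1C, beside 0.523%). The reverse pattern, a 0 in every IVF-BL or SCNT-BL of a sex with a level in at least 4 sham NT-BLs, was met by 0 members in each of the 4 comparisons (0.154%, 0.135%, 0.0786% and 0.119% of genes). Sham NT-BLs had the lower median depth in each of these comparisons, and its part in the zeros was not tested. Female SCNT replicate 5, the library of lowest relative depth at 0.371, had 1.47 FPKM of HIST1H2AD and 63.0 FPKM of HIST1H2BN, and was at 0 in HIST1H2AG, in HIST1H1C and in 5 more of the 21 members above 0 in its group.

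The number of members above 0 per library had a median of 14, 17.5 and 9.5 in male IVF, SCNT and sham NT-BLs and of 17, 18 and 11 in the female groups, and was 18 in each donor library. As a description of where the highest values lay, male IVF replicate 5 held the highest value of its group in 11 of the 21 members above 0 there, and male SCNT replicate 5 in 9 of 23. In female IVF-BLs replicates 1 and 6 each held 8 of 22, and in female SCNT-BLs the highest values were spread, with 1, 6, 4, 5, 4 and 1 of 21 in replicates 1 to 6.

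The donor cells were set beside the SCNT-BLs made from them, with no test because each is 1 library. The summed level was 305 FPKM in the male and 212 FPKM in the female donor cells, with H1 sums of 28.2 and 14.6 FPKM. Of 21 members over the level filter, the male donor cells lay above all 6 male SCNT-BLs in 7, where 36.9% of all genes did, and below all 6 in 2 (23.3%). The female donor cells lay above all 6 female SCNT-BLs in 5 of 21 (36.5%) and below in 3 (22.8%). Neither share of higher members was above that of all genes.

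The following 5 genes were above every SCNT-BL of the same sex in both donor libraries. The share of all genes above in both was not counted, so the 5 are named as description only. The S-phase linker histone gene HIST1H1B stood at 21.3 FPKM in the male and 4.91 in the female donor cells, against highest values of 5.26 and 2.88 FPKM in male and female SCNT-BLs. HIST2H2BE, an H2B gene of the second cluster, stood at 24.2 and 48.1 FPKM, against 12.5 and 6.03 FPKM as the highest SCNT-BLs. HIST1H2BM stood at 65.7 and 37.3 FPKM against 15.3 and 7.97, HIST1H1D at 2.67 and 2.38 against 1.86 and 0.803, and HIST3H2A at 4.97 and 6.04 against 1.02 and 2.81 FPKM. Below all 6 male SCNT-BLs were HIST1H2AG, at 3.24 FPKM in the male donor cells against a lowest SCNT-BL of 4.19, and HIST1H2AJ, at 0 against 6.24. Below all 6 female SCNT-BLs were HIST1H2AD, at 0 against a lowest SCNT-BL of 0.459 FPKM, HIST1H2BN, at 19.2 against 28.5, and HIST1H2BD, at 48.6 against 50.9.

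No H3 or H4 gene carries a HIST symbol in the table, so histone rows under other names were read beside the members. There were 29, of which 25 under locus numbers were matched by gene ID to RefSeq, 3 are named H2B and 1 is named H4. By class, 4 are H2A, 10 H2B, 6 H3 and 9 H4 rows. Only 2659 of 4956 rows under locus numbers had a gene ID in RefSeq. Further histone rows may thus be missed, and sums by class cover the rows found only. Between SCNT-BLs and IVF-BLs limma called 0 of 23 in males, with 2 at an unadjusted p under 0.05, and 0 of 24 in females, with 5. Between sham NT-BLs and IVF-BLs 0 were higher and 1 lower of 21 in males, and 0 of 20 were called in females, with 5 lower at an unadjusted p under 0.05. Between SCNT-BLs and sham NT-BLs 3 were higher and 1 lower of 21 in males, and 4 higher and 0 lower of 24 in females, beside 11.8% and 11.3% of all genes called in these 2 comparisons and 12.1% and 13.5% in the sham NT and IVF pairs.

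The row lower in male sham NT-BLs was LOC787269, H2BC4 in RefSeq. It had 5.1, 15.8 and 42.6 FPKM among male IVF-BLs against 0, 0.609 and 4.42 in male sham NT-BLs, with no overlap (log2 difference -3.15, SE 0.51, limma adjusted p = 0.00081). LOC616776, H2BC17 in RefSeq, was the row called higher in SCNT-BLs than in sham NT-BLs of both sexes, by 1.82 (limma adjusted p = 0.0157) in males and 1.98 (0.00467) in females on the log2 scale. Its means were 53.5, 54.4 and 16.9 FPKM in male IVF, SCNT and sham NT-BLs and 41.3, 73.0 and 19.1 FPKM in the female groups. The H2A row LOC618824, H2AC10 in RefSeq, had means of 65.7, 121 and 88.2 FPKM in the male groups. In the female groups its means were 22.3, 81.1 and 24.8 FPKM. It was called higher in female SCNT-BLs than in sham NT-BLs (log2 difference 1.72, limma adjusted p = 0.0213), but not in the male pair (1.12, limma adjusted p = 0.216). H3 rows summed to group means of 2.33 to 6.58 FPKM in embryos and to 18.8 and 19.2 FPKM in the donor cells, and H4 rows to 2.2 to 13.4 FPKM in embryos and 11.1 and 4.41 FPKM in the donor cells.

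Genes listed as replication-independent histone variants were read as a second group. Here too the values cover polyadenylated transcripts only. Of 16 listed, 11 or 12 rows were tested in each comparison. The counts of this and the following lists against IVF-BLs are to be read beside the share of all genes called, which was 6.98% in male SCNT-BLs, 12.1% in male sham NT-BLs, 0.321% in female SCNT-BLs and 13.5% in female sham NT-BLs. Between sham NT-BLs and IVF-BLs 2 were higher and 4 lower in males, and 3 were higher and 1 lower in females. H2AFZ, which encodes H2A.Z, stood at 139 ± 25.6 FPKM in male IVF-BLs and 923 ± 377 in male sham NT-BLs (SD, n = 6 each), with a log2 difference of 2.63 (limma adjusted p = 2.5e-05). In females the lowest sham NT-BL was at 833 FPKM and the highest IVF-BL at 213 FPKM (log2 difference 3.01, limma adjusted p = 1.2e-05). H3F3B, which encodes H3.3, rose from 29.2 ± 6.46 to 134 ± 46.9 FPKM in males (n = 6 each, log2 difference 2.12, limma adjusted p = 7.1e-05). In females it rose from 33.1 ± 15.1 (n = 6) to 119 ± 37.1 FPKM (n = 5), by 1.92 (limma adjusted p = 0.00233). H3F3A, a second H3.3 gene, did not show the same rise. Its male values spanned 102 to 162 FPKM after IVF against 53.3 to 110 after sham NT. Its female values overlapped widely, with 42.5 to 150 FPKM after IVF against 32.8 to 253 after sham NT.

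Other variants fell or differed by sex. H2AFJ, an H2A gene outside the clusters, fell in sham NT-BLs of both sexes against IVF-BLs, by -2.14 in males (limma adjusted p = 0.039) and -2.20 in females (0.00644). H2AFX, the H2A.X gene whose product is phosphorylated at DNA breaks, stood at 13.7 ± 7.78, 3.20 ± 1.34 and 1.46 ± 1.03 FPKM in male IVF, SCNT and sham NT-BLs (SD, n = 6 each). It was lower than in IVF-BLs by -1.73 in male SCNT-BLs (limma adjusted p = 0.00881) and by -2.54 in male sham NT-BLs (0.00065), and the change from IVF to SCNT differed between the sexes by 2.02 (limma adjusted p = 0.0419). H2AFV, a second H2A.Z gene, was lower in male SCNT-BLs than in male IVF-BLs (-0.96, limma adjusted p = 0.0295) and higher in female sham NT-BLs than in female IVF-BLs (2.68, limma adjusted p = 0.00013), and its sham effect differed between the sexes by 2.80 (limma adjusted p = 0.00244). In the remaining comparisons of variants 0 of 12 rows were higher and 2 lower in male SCNT-BLs against IVF-BLs, 0 of 11 were called in the female pair, 0 were higher and 2 lower of 11 in male SCNT-BLs against sham NT-BLs, and 2 were higher and 3 lower of 12 in the female pair.

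**Figure D5:**
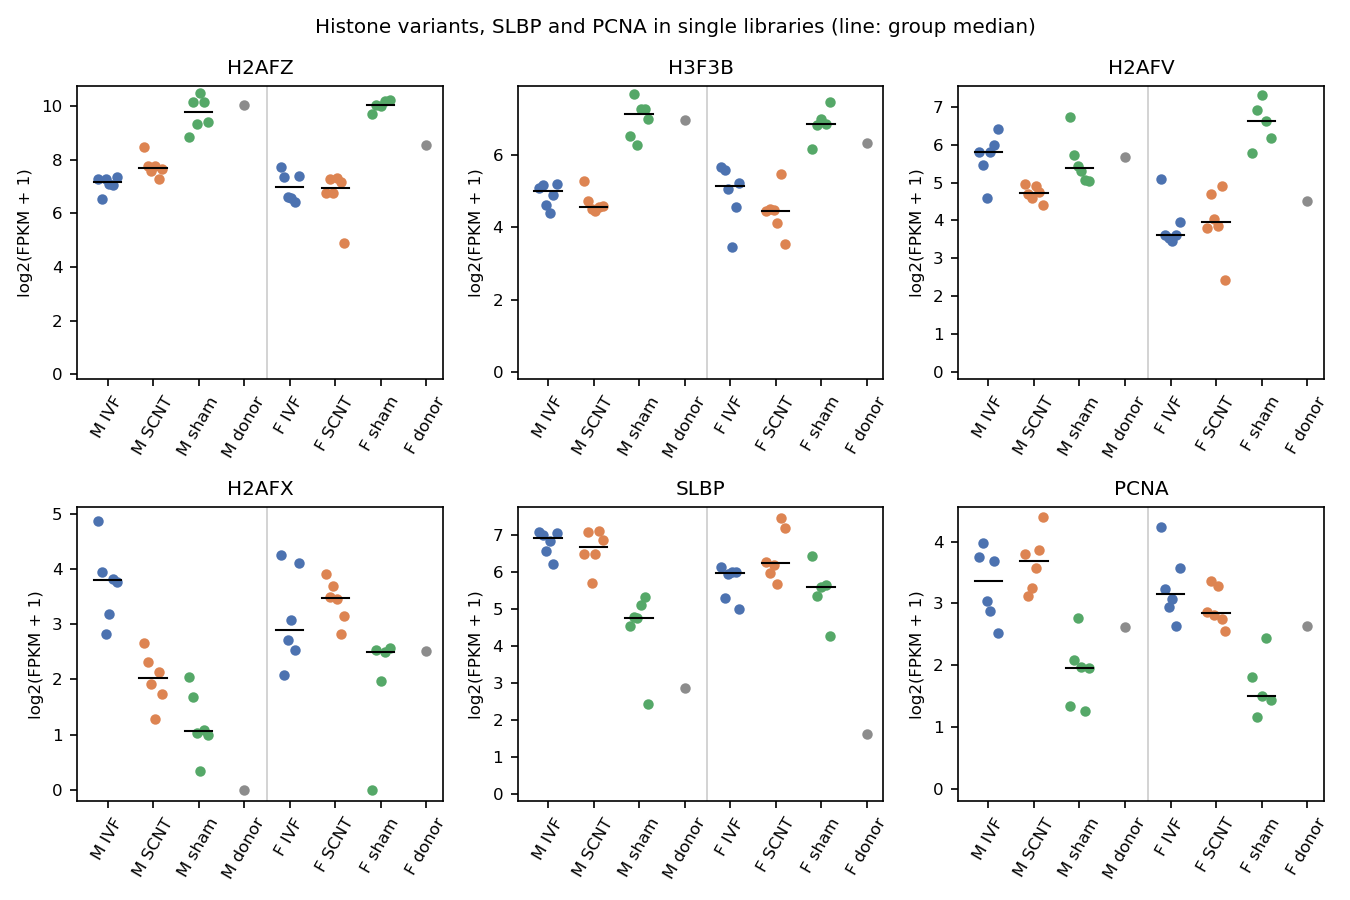
Level of 4 histone variant genes, SLBP and PCNA as log2(FPKM + 1) in every library by group (1 point per library, line at the group median). H2AFZ and H3F3B are higher in all sham NT-BLs than in any IVF-BL or SCNT-BL of the same sex, and PCNA group medians are lowest in sham NT-BLs among embryos.

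Genes that shape the 3′ end of histone mRNA were read next. Of 19 listed, 18 were tested, and 5 were higher and 3 lower in male sham NT-BLs against IVF-BLs, 3 higher and 3 lower in the female pair, 0 higher and 1 lower in male SCNT-BLs against IVF-BLs and 0 either way in the female pair. The higher ones were SYMPK, MIF4GD, CPSF2, NCBP1 and CSTF2 in males and SNRPB, SRRT and NCBP1 in females, and the lower ones SLBP, SNRPG and SNRPD3 in males and SNRPG, SNRPE and SNRPD3 in females. SLBP, the stem-loop binding protein gene, stood at 113 ± 24.2, 103 ± 33.3 and 25.4 ± 11.9 FPKM in male IVF, SCNT and sham NT-BLs (SD, n = 6 each). Male sham NT-BLs did not overlap the male IVF-BLs, the highest at 39.5 against the lowest at 74.4 FPKM (log2 difference -2.31, SE 0.38, limma adjusted p = 0.00101). In females SLBP stood at 54.6 ± 15.8, 97.6 ± 51.3 (n = 6 each) and 48.3 ± 24.2 FPKM (n = 5), and the sham NT difference of -0.27 was not called (limma adjusted p = 0.632). The difference between the sexes was 2.04 (limma adjusted p = 0.0641), and SLBP stood at 6.32 and 2.08 FPKM in the donor cells. SNRPG, a ring protein of small nuclear ribonucleoproteins including U7, fell in sham NT-BLs against IVF-BLs by -1.77 in males (limma adjusted p = 0.00014) and -2.18 in females (4.9e-05). Between SCNT-BLs and sham NT-BLs 3 of 18 were higher and 4 lower in males, and 1 higher and 5 lower in females.

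The other lists gave the following counts. Of 17 genes for polyadenylation of other mRNAs, all tested, 0 were higher and 1 lower in male SCNT-BLs against IVF-BLs, 5 higher and 3 lower in male sham NT-BLs against IVF-BLs, and 1 higher and 2 lower in the female sham pair. PABPN1, which binds new poly(A) tails, was higher in sham NT-BLs of both sexes (0.81, limma adjusted p = 0.021 in males and 1.72, 0.00021 in females), and CPSF7 and PABPC4 were lower in both. Of 14 genes for histone mRNA decay, 1 was higher and 1 lower in male SCNT-BLs, 2 higher and 3 lower in male sham NT-BLs and 1 higher and 1 lower in female sham NT-BLs, each against IVF-BLs; ZCCHC6, which adds uridines to histone mRNA, was higher in sham NT-BLs of both sexes (1.25, limma adjusted p = 0.00755 in males and 0.94, 0.0427 in females), and LSM3, of the ring that binds mRNA ends before decay, was lower in both (-1.57, limma adjusted p = 0.0179 and -1.95, 0.0205). Of 13 genes for histone gene transcription at S phase, 11 or 12 were tested, with 0 higher and 2 lower in male SCNT-BLs, 1 higher and 0 lower in male sham NT-BLs and 0 higher and 1 lower in female sham NT-BLs against IVF-BLs. The genes were POU2F1 and TRRAP, GON4L, and HINFP, the factor that binds H4 gene promoters, in that order. NPAT, the coactivator of the histone clusters, was called in 0 of the 6 comparisons. In the female SCNT and IVF pair 0 genes of any of these lists, of the chaperone list or of the replication list were called.

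Histone chaperones, which carry new histones to DNA, gave 4 higher and 1 lower of 17 in male SCNT-BLs against IVF-BLs, 1 higher and 1 lower of 18 in male sham NT-BLs and 1 higher and 3 lower of 18 in female sham NT-BLs. Those of the male SCNT-BLs were NASP, SUPT16H, NAP1L1 and NAP1L4 (higher) and MCM2 (lower). Those of the sham NT-BLs were RBBP7 (higher) and NAP1L4 (lower) in males and ASF1B (higher) and CHAF1B, RBBP4 and DAXX (lower) in females. NASP, a chaperone of H1 and of H3 with H4, stood at 108 ± 22.2 FPKM in male IVF-BLs and 243 ± 33.9 in male SCNT-BLs (SD, n = 6 each; log2 difference 1.17, limma adjusted p = 0.00059). Of 21 rows of DNA replication and proliferation genes, 1 was higher and 2 lower in male SCNT-BLs, 1 higher and 3 lower in male sham NT-BLs and 2 higher and 2 lower in female sham NT-BLs, each against IVF-BLs. PCNA, the sliding clamp of DNA synthesis, fell in sham NT-BLs against IVF-BLs from 9.59 ± 4.03 to 2.96 ± 1.58 FPKM in males (n = 6 each; log2 difference -1.41, limma adjusted p = 0.0178) and from 9.44 ± 4.58 (n = 6) to 2.34 ± 1.25 FPKM (n = 5) in females (-1.62, limma adjusted p = 0.00785). MCM5, a subunit of the replicative helicase, fell in male SCNT-BLs from 109 ± 16.9 to 28.5 ± 6.43 FPKM (n = 6 each; log2 difference -1.91, limma adjusted p = 2.5e-05), and the change differed between the sexes by 1.95 (limma adjusted p = 0.00109).

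Between SCNT-BLs and sham NT-BLs the same lists gave 2 higher and 2 lower of 17 polyadenylation genes in males and 3 higher and 1 lower in females, and 2 higher and 3 lower of 14 decay genes in males and 0 higher and 1 lower in females. The S-phase transcription list gave 0 higher and 3 lower of 11 in males and 0 of 12 in females, the chaperones 3 higher and 3 lower of 18 in males and 3 higher and 1 lower of 17 in females, and the replication list 3 higher and 1 lower of 21 in males and 2 higher and 0 lower in females. These counts stand beside 11.8% and 11.3% of all genes called in males and females.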

How the data were processed

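Single-blastocyst and donor-cell poly(A) RNA was amplified and sequenced, and the authors trimmed reads with Trim Galore, aligned them with TopHat to UMD3.1 and deposited FPKM values per gene from Cufflinks and Cuffdiff (versions not given in the sources used here). The 37 library columns were assigned by their labels. Raw counts were not used here, so depth was read only as relative depth, from the steps between values under 1 FPKM. Differences were fitted with limma 3.58.1 in R 4.3.3 (trend) on log2(FPKM + 1), keeping genes with a mean over 0.1 FPKM, with a threshold of 0.05 on adjusted p-values. Tables and plots used Python 3.11.15, pandas 2.3.3, numpy 2.4.6 and matplotlib 3.10.9. The fit was tested on simulated data with changes placed only in well-expressed genes, so that test does not cover members near 0. The members, the gene lists and the tests were chosen with earlier results of these data known. Named genes were the members called in any comparison, the 3 most abundant of each class, those detected in most and fewest embryos, those highest in donor cells and, from the lists, called or abundant genes, of which the text gives a selection; other members, the rows under locus numbers and NPAT were named after their values were seen. Each blastocyst is a separate embryo. Sequences and coordinates of the members are not used here, and of the 24 symbols 11 matched RefSeq (names only).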

Additional observations from a re-analysis of the deposited data

Results flagged for a closer look

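A single embryo stood far from the rest of its group in 11 of 73 groups of values tested, where chance flags about 1 in 20 groups of values without ties. That rate does not hold for groups at 0 in all embryos but 1, where any value stands apart, as for HIST1H2AD, HIST1H1C and HIST1H2AJ in male sham NT-BLs. In male IVF replicate 5 the summed H2A level was 151.0 FPKM and HIST1H1C was 2.86 FPKM. HIST1H2AD was 3.38 FPKM in male SCNT replicate 2 and 1.9 FPKM in male sham NT replicate 6. Among male sham NT-BLs, HIST1H2AG was 5.52 FPKM in replicate 5, HIST1H1C was 0.495 FPKM in replicate 4 and HIST1H2AJ was 2.09 FPKM in replicate 1. In female sham NT replicate 2, HIST1H2BM was 29.7 FPKM and HIST1H2AJ was 5.24 FPKM. HIST1H1E listing 2 was 3.24 FPKM in female IVF replicate 1, and HIST3H2BB was 44.4 FPKM in female SCNT replicate 5.

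The change from IVF to SCNT differed between the sexes for HIST1H2BN by 3.48 on the log2 scale (limma adjusted p = 0.0326), with a male difference of -1.84 and a female difference of 1.64, neither called on its own.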

How the results depend on the processing

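The ratio of male SCNT to male sham NT in the summed level of the members was 0.921, and was over 1 in 2 of 14 alternatives. With 1 embryo left out it ran from 0.826 to 1.07, so its direction is not settled. No other direction reversed. These counts of members called moved by more than 1.5 times. Between male SCNT-BLs and IVF-BLs 1 member was higher with a mean over 1 FPKM or after median centring (0 before), and 2 were lower with a pseudocount of 0.1, a mean over 1 FPKM, the replicate block or the 3 groups in 1 fit (1 before), and 1 to 2 with 1 embryo left out. Between male sham NT-BLs and IVF-BLs 2 were lower with no filter, 1 without the lower-depth libraries and 1 to 4 with 1 embryo left out (4 before). Between female sham NT-BLs and IVF-BLs 2 were lower with the 3 groups in 1 fit (4 before), and 4 to 5 with 1 embryo left out. Between female SCNT-BLs and IVF-BLs 1 was higher without the lower-depth libraries (0 before). The interaction gave 2 with a pseudocount of 0.1 or a mean over 1 FPKM, 0 with no filter, the replicate block or the lower-depth libraries left out, and 0 to 2 with 1 embryo left out (1 before). Within 1.5 times, SCNT-BLs against sham NT-BLs gave 3 to 6 higher in males and 5 to 8 in females with 1 embryo left out. The cause of these moves was not tested. Leaving out the 7 libraries with relative depth under 0.6 was chosen after seeing the data.

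Same-numbered embryos did not deviate together (34 pairs, correlations of -0.239 to 0.0767, 0 over 0.1), so the replicate numbers give no pairing, and under the replicate block HIST1H1C between female SCNT-BLs and sham NT-BLs had a limma adjusted p of 0.0518, HIST1H1C between male SCNT-BLs and sham NT-BLs 0.0869 and the HIST1H2BN interaction 0.0614, while HIST1H2BN passed against male IVF-BLs in male SCNT-BLs (0.0382) and male sham NT-BLs (0.0309) and HIST1H2AH passed between female SCNT-BLs and sham NT-BLs (0.0474). Over all genes, calls between male SCNT-BLs and IVF-BLs went from 498 higher and 542 lower to 293 and 359 with the block. In the female pair 32 and 17 became 1 and 0 with no filter, 14 and 6 with the block, 41 and 34 with a mean over 1 FPKM and 42 and 30 with the 3 groups in 1 fit, and 1 to 34 and 0 to 27 with 1 embryo left out (moved by over 1.5 times without any of female IVF replicates 1, 2, 3, 5 or 6 or female SCNT replicates 1 to 4). Without the lower-depth libraries the female sham NT against IVF counts went from 1073 and 988 to 579 and 394, the female SCNT against sham NT counts from 788 and 918 to 421 and 602, and male sham NT against IVF lower calls from 888 to 544. The block gave 584 lower for female sham NT against IVF and 437 higher for female SCNT against sham NT. The SCNT interaction went from 164 and 131 to 54 and 40 with the block, 108 and 107 after centring and 97 and 84 without the lower-depth libraries, and the sham NT interaction from 128 and 59 to 49 and 20 with the block and 10 and 10 without those libraries. With 1 embryo left out the SCNT interaction gave 86 to 178 and 61 to 133 (moved by over 1.5 times without male IVF replicates 1, 2 or 6, male SCNT replicates 1 or 5, female IVF replicates 2 or 3 or female SCNT replicate 3), the sham NT interaction 72 to 167 and 36 to 71 (female sham NT replicates 2 or 4), and female SCNT against sham NT 487 to 808 higher (female sham NT replicates 3 or 4). Median centring moved the share of higher calls from 50.7% to 61.1% in male and from 52.1% to 65.7% in female sham NT-BLs against IVF-BLs. Depth is known only as relative depth, so a member at 0 may lie below detection.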
